A study of Mus musculus with 10 samples.

Results

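Genes that coat, enlarge and initiate lipid droplets were examined in livers of fasted mice lacking both macroH2A genes. The list held 10 genes: the perilipins Plin2, Plin3, Plin4 and Plin5, the CIDE genes Cidea, Cideb and Cidec, G0s2, and the FIT genes Fitm1 and Fitm2. They were chosen by gene symbol, requiring a probe set (a row of the array table) that the platform annotation assigns to exactly 1 gene. Of the 10 genes, 9 met this condition, with 11 rows in all, out of 22180 genes and 23521 rows in the whole table. Cideb occurred only on a row shared with Nop9 and is given separately. G0s2 and Fitm1 had 2 rows each, and the row with the highest mean over the 10 arrays was taken as the main row of each gene.

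The study compared 5 macroH2A1 macroH2A2 double knockout livers with 5 wild-type livers. All mice were male, of strain 129/S6 (taconic), 2 months old, kept on low fat chow and fasted for about 16 h before a morning kill. The labels describe the knockout by its 2 genes alone and name no promoter or Cre. MacroH2A proteins are variants of histone H2A with a large additional domain, and both groups were whole liver, a mixture of hepatocytes with macrophages, endothelial cells and stellate cells. The labels do not say in so many words that each sample is a separate animal, so p-values measure the spread between these samples.

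Lipid droplets store triglyceride and cholesteryl ester in a core covered by a phospholipid monolayer and a coat of proteins. Perilipins sit on that surface and control the access of lipases, CIDE proteins promote the transfer of lipid from small to large droplets, and FIT proteins act in the endoplasmic reticulum membrane where droplets form. G0S2 inhibits adipose triglyceride lipase (Pnpla2), the enzyme that begins triglyceride breakdown. During a fast, fatty acids from adipose tissue reach the liver, droplets accumulate there, and the nuclear receptor PPARalpha is known to raise several of these genes.

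The values were deposited log2 expression levels, in which a difference of 1 is a doubling. Array medians lay between 6.43 and 6.46, correlations between arrays ranged from 0.989 to 0.995, and the number of arrays limits the precision. The 1108 olfactory receptor rows, from a gene family not expected in liver, had a 95th percentile of 6.54, which serves as a guide to background. Hepatocyte markers had list means of 13.32 to 13.35 in double knockout and 13.30 to 13.38 in wild-type arrays. Macroh2a1 averaged 9.11 ± 0.07 in double knockout and 9.60 ± 0.07 in wild-type livers (SD, n = 5 each), and fell by 0.49 (SE 0.05, limma adjusted p = 0.00128). Macroh2a2 averaged 6.12 ± 0.19 in double knockout and 6.32 ± 0.28 in wild-type livers (SD, n = 5 each), both below that guide (limma adjusted p = 0.514). Whether either probe set reads the deleted sequence is unknown here, so neither level settles what was removed. Pancreas acinar markers stood apart on 4 arrays, with list means of 8.47 and 8.66 in double knockout replicates 1 and 2 and of 9.64 and 10.74 in wild-type replicates 4 and 5, against 6.07 to 6.73 in the other 6 arrays.

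No droplet gene passed the test between double knockout and wild-type livers. In limma, with Benjamini-Hochberg adjustment over 25335 rows, 0 of the 9 genes were called at an adjusted p under 0.05, where 0.884% of all rows were called (0.332% higher and 0.553% lower). At an adjusted p under 0.1 there was 1 of 9, Fitm1, against 2.31% of all rows. At an unadjusted p under 0.05 there were 3 of 9, Fitm1, Cidec and G0s2, against 15.1% of all rows. The 5 double knockout and 5 wild-type arrays overlapped for each of the 9 genes, while 3.9% of all rows had groups that did not overlap (1.75% higher and 2.15% lower). Of the 9 differences, 2 were above 0 and 7 below it, with a median of -0.04, beside a median of -0.003 and a share of 51.5% below 0 over all rows. In whole liver, fewer cells of a type and less RNA per cell cannot be told apart.

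**Figure D1:**
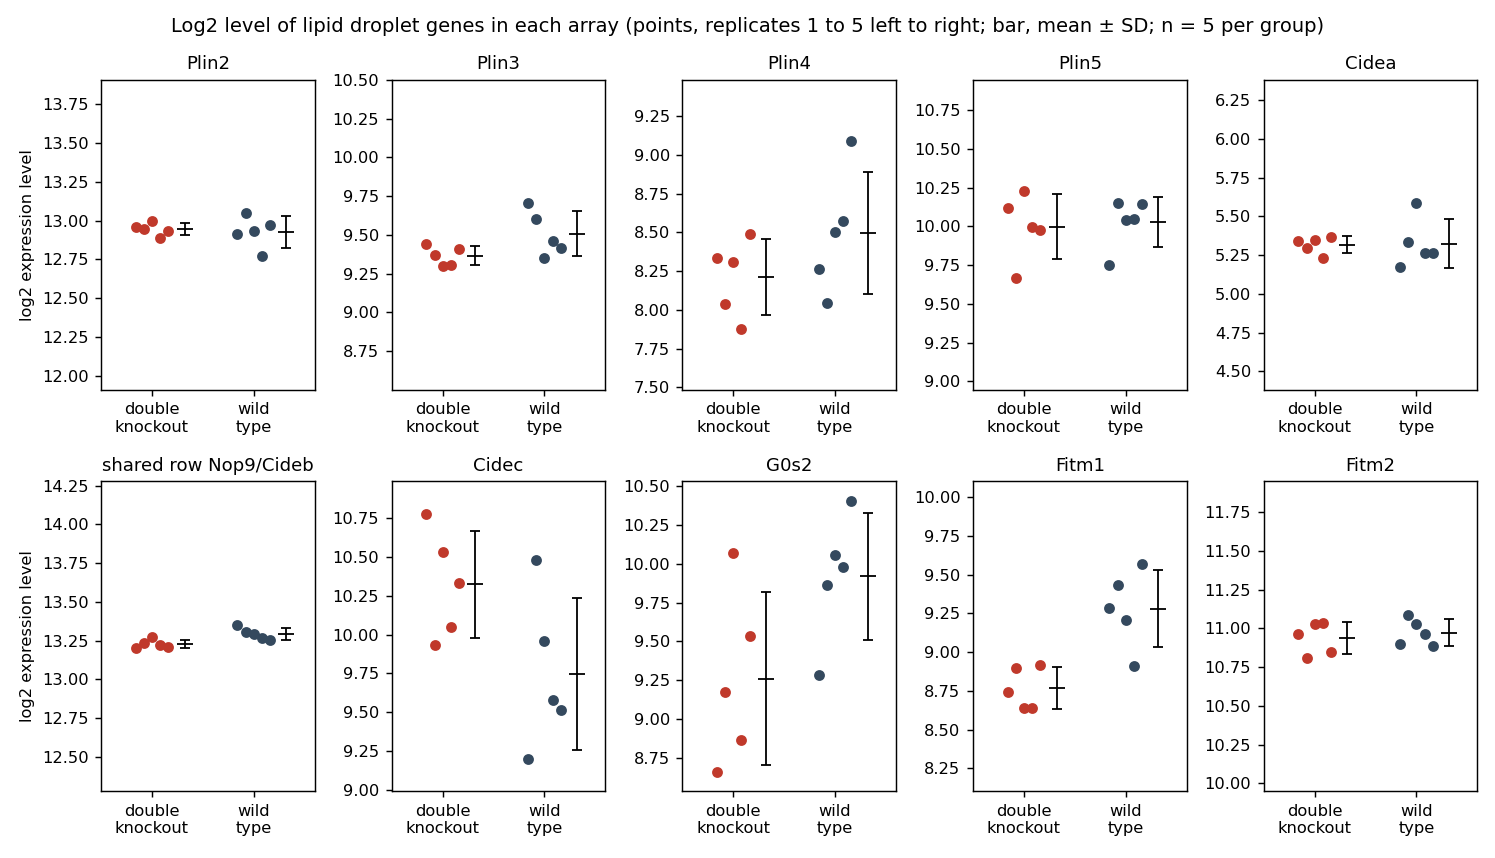
Log2 expression level (vertical axis, each panel spanning 2 log2 units) of the 9 droplet genes and of the row shared by Nop9 and Cideb, in 5 double knockout arrays (red, left) and 5 wild-type arrays (blue, right) per panel, with mean ± SD. Plin2 points lie close together at 12.77 to 13.05, whereas Cidec and G0s2 points spread over more than 1 log2 unit, and the groups overlap in every panel.

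Sequence upstream of the transcription start is shown for the 3 genes with the lowest p and for Plin2 and Plin5, the genes whose windows held the hexamer AGGTCA, the core that PPARalpha and related receptors bind in pairs. Sequences are from RefSeq, build GRCm38.p6, 5′ to 3′ on the strand of the gene, covering the 250 bases before the start, with AGGTCA on either strand in capitals (TGACCT where it lies on the opposite strand). The windows are Fitm1 at chr14:55575424-55575673 (+), G0s2 at chr1:193273189-193273438 (-), Cidec at chr6:113435761-113436010 (-), Plin2 at chr4:86670060-86670309 (-) and Plin5 at chr17:56117549-56117798 (-).
Fitm1: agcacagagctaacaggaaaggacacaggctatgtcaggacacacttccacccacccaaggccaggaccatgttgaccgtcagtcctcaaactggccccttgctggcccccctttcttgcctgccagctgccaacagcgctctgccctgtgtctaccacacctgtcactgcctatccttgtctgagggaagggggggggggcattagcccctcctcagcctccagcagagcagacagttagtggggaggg
G0s2: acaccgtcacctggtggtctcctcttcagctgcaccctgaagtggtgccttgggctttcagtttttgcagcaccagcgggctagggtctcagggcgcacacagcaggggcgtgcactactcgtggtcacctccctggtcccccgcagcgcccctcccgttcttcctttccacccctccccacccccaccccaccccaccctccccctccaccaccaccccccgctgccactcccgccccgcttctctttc
Cidec: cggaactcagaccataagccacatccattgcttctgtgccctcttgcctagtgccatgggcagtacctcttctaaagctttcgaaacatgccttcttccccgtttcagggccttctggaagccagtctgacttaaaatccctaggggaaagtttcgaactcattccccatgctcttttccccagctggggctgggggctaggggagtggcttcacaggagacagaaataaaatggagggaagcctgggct
Plin2: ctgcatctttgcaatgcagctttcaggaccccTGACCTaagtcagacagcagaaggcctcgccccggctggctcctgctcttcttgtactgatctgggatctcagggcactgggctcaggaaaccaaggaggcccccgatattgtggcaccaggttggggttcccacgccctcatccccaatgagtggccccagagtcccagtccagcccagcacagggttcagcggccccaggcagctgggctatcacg
Plin5: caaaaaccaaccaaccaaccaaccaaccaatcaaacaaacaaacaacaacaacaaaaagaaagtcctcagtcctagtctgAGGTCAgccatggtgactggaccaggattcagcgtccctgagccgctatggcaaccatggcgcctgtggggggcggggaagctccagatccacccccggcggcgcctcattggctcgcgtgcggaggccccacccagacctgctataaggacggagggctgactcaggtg
The hexamer occurred once in the Plin2 window, beginning 218 bases before the start, and once in this Plin5 window, beginning 170 bases before it. Of 11 windows of 9 droplet genes in the table, which include a second start each for Cidec and Plin5, 2 held it. Of all 32851 windows of this length, 14.0% did. A match describes these letters and is not a site, and a window without one says only that the letters are not in it.

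Fitm1 came closest to the threshold. FITM1 is a triglyceride-binding protein best known from skeletal muscle. Its main row stood at 8.74, 8.90, 8.64, 8.64 and 8.92 in double knockout replicates 1 to 5, against 9.29, 9.43, 9.20, 8.91 and 9.57 in wild-type replicates 1 to 5. Double knockout replicates 1 to 4 lay below every wild-type array, and replicate 5, at 8.92, lay just above wild-type replicate 4, at 8.91. The log2 difference was -0.51 (SE 0.11, 95% interval -0.75 to -0.28), a level 0.70 times that of wild type (0.594 to 0.825), with a limma adjusted p of 0.0529 and a two-sided exact permutation p of 0.0159, against a smallest possible value of 0.00794. Its other row, with means of 6.70 ± 0.14 in double knockout and 6.82 ± 0.10 in wild-type livers (SD, n = 5 each), had a difference of -0.12 (SE 0.07, limma adjusted p = 0.483). That row lay near the background guide of 6.54.

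The Fitm1 result sat on the threshold and moved to either side of it with the settings. Without wild-type replicate 4, the lowest wild-type array, the difference was -0.61 (SE 0.09, limma adjusted p = 0.0139), and in the other 9 fits that left out 1 array it ran from -0.55 to -0.44 without passing. With the 4 arrays richest in pancreas markers left out it was -0.58 (SE 0.10, limma adjusted p = 0.0759). With the macrophage marker mean of each array as a covariate it was -0.35 (SE 0.15, limma adjusted p = 0.389). That mean was itself higher in double knockout (9.24 to 9.57) than in most wild-type arrays (9.02 to 9.33). The covariate therefore shares part of the group difference, and the part of macrophages in the Fitm1 difference was not tested. The 11 skeletal muscle markers gave list means of 6.39 to 6.45 in double knockout and 6.36 to 6.58 in wild-type arrays, with 6 of 11 below the background guide and 0 called (0 also at an unadjusted p under 0.05 in limma).

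Fitm2, the FIT gene known to be expressed widely and to be needed for droplet formation, lay within narrow limits. It stood at 10.97, 10.81, 11.03, 11.04 and 10.85 in double knockout replicates, against 10.90, 11.09, 11.03, 10.97 and 10.89 in wild-type replicates. Of the double knockout arrays, 2 lay below every wild-type array and the other 3 lay within the wild-type range. The difference of -0.04 (SE 0.06, limma adjusted p = 0.842) had a 95% interval of -0.16 to 0.09.

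**Figure D2:**
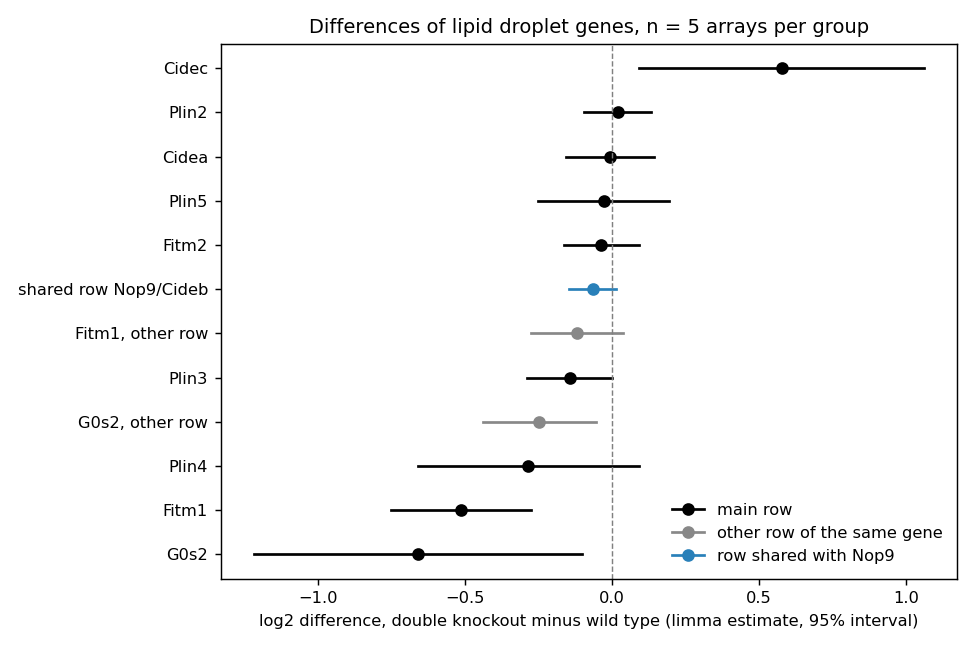
Log2 difference of each row, double knockout minus wild type (horizontal axis), as the limma estimate (point) with its 95% interval (line), n = 5 arrays per group. Intervals of Fitm1, Cidec and both G0s2 rows leave out 0 before adjustment for multiple testing, and those of Plin2, Plin5, Fitm2 and Cidea are narrow or centred near 0.

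G0s2 was lower in most double knockout livers but varied widely. It encodes the lipase inhibitor described above. Levels were 8.66, 9.17, 10.07, 8.87 and 9.53 in double knockout replicates, against 9.28, 9.86, 10.06, 9.98 and 10.41 in wild-type replicates. Double knockout replicate 3 was as high as the wild-type arrays, 3 double knockout arrays lay below all wild-type arrays, and wild-type replicate 1 lay among the double knockout values. The difference was -0.66 (SE 0.26, 95% interval -1.22 to -0.10, limma adjusted p = 0.246; two-sided exact permutation p = 0.0794). The other G0s2 row, at means of 6.71 ± 0.18 in double knockout and 6.95 ± 0.13 in wild-type livers (SD, n = 5 each), had -0.25 (SE 0.09, limma adjusted p = 0.213). Single arrays left out in turn gave -0.86 to -0.51 for the main row, and dropping replicate 1 of both groups gave -0.67 (SE 0.22, limma adjusted p = 0.189). With the 4 arrays richest in pancreas markers left out, the main row had a difference of -0.25 (SE 0.30, limma adjusted p = 0.788). Those 4 arrays had low G0s2 levels in double knockout (8.66 and 9.17) and high ones in wild type (9.98 and 10.41). The part of pancreatic RNA in the G0s2 difference was not tested further.

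Cidec was the droplet gene with the largest difference above 0. CIDEC, also called FSP27, enlarges droplets in adipocytes and in fatty liver. Levels were 10.78, 9.93, 10.53, 10.05 and 10.33 in double knockout replicates, against 9.20, 10.48, 9.96, 9.58 and 9.52 in wild-type replicates. All 5 double knockout arrays lay above the wild-type mean, and 2 lay above every wild-type array, while wild-type replicates 2 and 3 lay within the double knockout range. The difference was 0.58 (SE 0.22, 95% interval 0.09 to 1.06, limma adjusted p = 0.243; two-sided exact permutation p = 0.0794). Leaving out single arrays gave 0.44 (wild-type replicate 1 out) to 0.76 (wild-type replicate 2 out), and dropping replicate 1 of both groups gave 0.33 (SE 0.20, limma adjusted p = 0.515).

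The other CIDE genes could be read only in part. Cidea, a regulator of large droplets in brown fat and of steatotic liver, lay at 5.23 to 5.37 in double knockout and 5.18 to 5.59 in wild-type arrays, below the background guide, so no level above background was measured in either group. Its difference was -0.01 (limma adjusted p = 0.977). CIDEB is the hepatocyte member of the family, known for its part in the lipid loading of very-low-density lipoprotein. The row that Cideb shares with Nop9 stood at 13.20, 13.23, 13.27, 13.22 and 13.21 in double knockout replicates, against 13.35, 13.31, 13.29, 13.27 and 13.26 in wild-type replicates. In this row 4 double knockout arrays lay below all wild-type arrays, yet the difference was only -0.07 (SE 0.04). Its limma adjusted p was 0.44 and its two-sided exact permutation p, unadjusted, was 0.0238. Which of the 2 genes carries the signal is not given by the annotation.

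Plin2 had the smallest pooled residual SD of the 9 genes, although within wild type alone the SD of Fitm2, 0.08, was below that of Plin2, 0.10. PLIN2 is the main droplet coat protein of hepatocytes. Levels were 12.96, 12.94, 13.00, 12.89 and 12.93 in double knockout replicates, against 12.91, 13.05, 12.93, 12.77 and 12.97 in wild-type replicates. The double knockout range lay wholly inside the wild-type range. With a difference of 0.02 (SE 0.05, limma adjusted p = 0.913), the 95% interval ran from -0.09 to 0.13 (0.937 to 1.10 times the wild-type level). Plin2 is one of the genes whose upstream window held AGGTCA.

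Plin5, which couples droplets to mitochondria in oxidative tissues, had a difference of -0.03 (SE 0.10, 95% interval -0.25 to 0.19, limma adjusted p = 0.936). It stood at 10.12, 9.67, 10.23, 10.00 and 9.98 in double knockout replicates, against 9.75, 10.15, 10.04, 10.05 and 10.14 in wild-type replicates, with 1 low array in each group, and its window too held AGGTCA. Plin3, a coat protein that moves from cytosol to young droplets, stood at 9.44, 9.37, 9.30, 9.31 and 9.41 in double knockout replicates, against 9.71, 9.61, 9.35, 9.46 and 9.42 in wild-type replicates. All 5 double knockout arrays lay below the wild-type mean, but the ranges overlapped, and the difference was -0.14 (SE 0.07, 95% interval -0.29 to 0.001, limma adjusted p = 0.333). It was -0.09 without wild-type replicate 1 and -0.05 (SE 0.09) once the macrophage list mean, which itself differed between the groups, was fitted as a covariate. Plin4, a perilipin of adipocytes and muscle, stood at 8.34, 8.04, 8.31, 7.88 and 8.49 in double knockout replicates, against 8.26, 8.05, 8.50, 8.57 and 9.09 in wild-type replicates. Its difference of -0.29 (SE 0.17, limma adjusted p = 0.483) leaned on wild-type replicate 5, the highest array, and was -0.14 without it and -0.04 with the 4 arrays richest in pancreas markers left out. Plin3, Plin4 and Plin5 all lie on chromosome 17, and none of them was called. Their differences were all below 0, as were 7 of the 9 over the whole list, and that of Plin5 turned sign in 3 of 14 alternatives.

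Arrays of the same group spread to very different degrees from gene to gene. The residual SD, the spread around the group means, was 0.49 for G0s2, 0.42 for Cidec and 0.33 for Plin4, above 99.2%, 98.9% and 98.3% of all rows. For Fitm1 it was 0.20 and for Plin5 0.19, above 93.9% and 92.5%. For Fitm2 it was 0.09, above 49.2% of all rows, and for Plin2 0.08, above only 30.8% of them. G0s2 and Cidec, the genes with the largest differences in size, were also those that varied most among samples of 1 genotype.

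**Figure D3:**
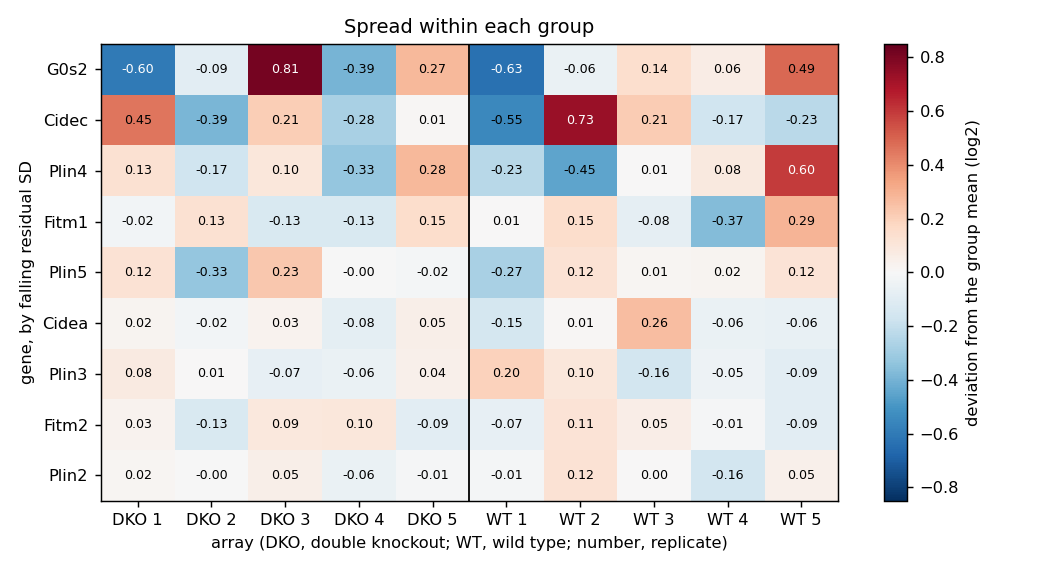
Deviation of each array from its group mean on the log2 scale (colour and printed value) for the 9 droplet genes, ordered by falling residual SD, in double knockout (DKO) and wild-type (WT) arrays. Deviations of G0s2 reach 0.81 in DKO replicate 3 and those of Cidec 0.73 in WT replicate 2, whereas those of Plin2 stay within 0.16.

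Deviations from the group means were compared between genes over the 10 arrays, for 36 pairs. The pair with the lowest p was Plin5 and Cidec, with Pearson's r = 0.70 (exact within-group permutation p = 0.0292, adjusted p = 0.583) and Spearman's rho = 0.73 (exact permutation p = 0.0230, adjusted p = 0.391). Without the 2 arrays farthest from the Plin5 median r was 0.45. Plin3 and G0s2 had r = -0.62 (exact permutation p = 0.0340, adjusted p = 0.583) and rho = -0.66 (exact permutation p = 0.0370, adjusted p = 0.391), with r = -0.52 without the 2 arrays farthest from the Plin3 median. No pair passed after adjustment over the 36.

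Likeness to single genes was described by the same deviations over 12556 other genes above the background guide. The 5 genes nearest to Plin2 were 4732419C18Rik, Rasal2, 4930404H11Rik, Tns4 and Ces2d-ps, with r from 0.92 to 0.98 over 10 arrays. For Fitm1 they were Ankrd13b, Foxi1, Adcy4, Col7a1 and Rassf2, with r from 0.88 to 0.98. None of these 10 genes was called between the groups, with limma adjusted p from 0.109 to 0.997. The correlations are the highest values of a search over 12556 genes in 10 arrays.

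**Figure D4:**
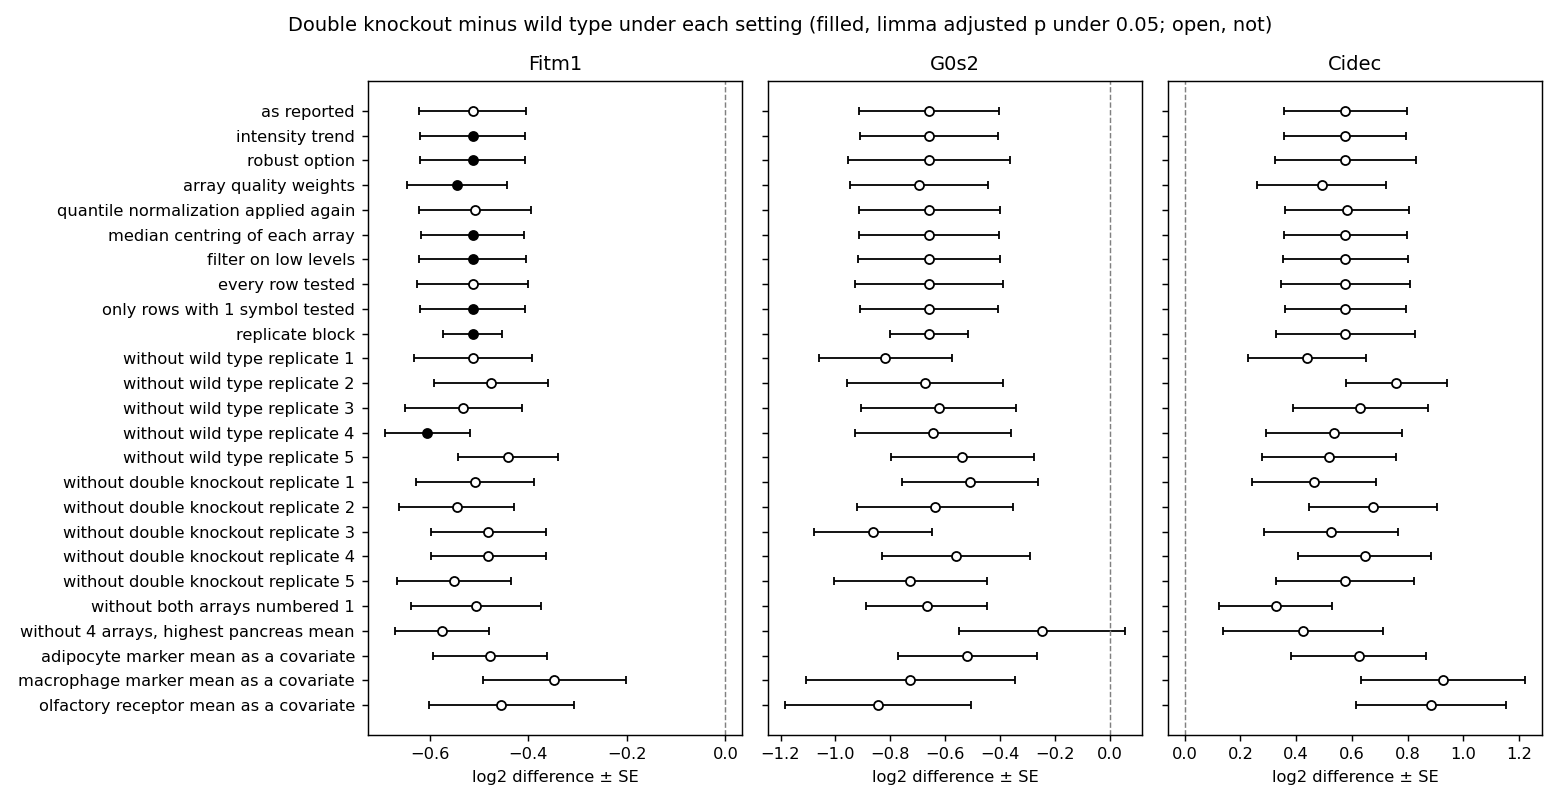
Log2 difference ± SE, double knockout minus wild type (horizontal axis), of Fitm1, G0s2 and Cidec in the limma fit as reported and under each other setting (rows), with filled points where the limma adjusted p was under 0.05. Fitm1 keeps its direction and changes sides of the threshold, and G0s2 comes nearest to 0 once the 4 arrays richest in pancreas markers are left out.

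Other genes of droplet metabolism are given as counts per list, beside 0.884% of all rows called and 15.1% at an unadjusted p under 0.05. In the lipolysis and lipophagy list, 1 of 16 measured genes (6.25%) was called, the carboxylesterase Ces1f, which fell by 0.35 (SE 0.07, limma adjusted p = 0.041), to 12.21 ± 0.14 in double knockout against 12.56 ± 0.10 in wild-type livers (SD, n = 5 each). Its relatives Ces2a and Ces1d, not called, had -0.18 (limma adjusted p = 0.128) and -0.11 (limma adjusted p = 0.359), and cross-hybridisation within this closely related family was not examined. Pnpla2, the lipase that G0S2 inhibits, averaged 11.43 ± 0.17 in double knockout and 11.27 ± 0.15 in wild-type livers (SD, n = 5 each), a difference of 0.17 (SE 0.09, limma adjusted p = 0.401). Abhd5, its activator, had a difference of -0.01 (limma adjusted p = 0.961). In this list 8 differences were above 0 and 8 below, with a median of -0.0003, and 2 of 16 had an unadjusted p under 0.05 in limma.

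Genes of droplet formation and triglyceride synthesis had 0 of 14 calls in limma, with 5 of 14 at an unadjusted p under 0.05 and a median of -0.04. The phosphatidate phosphatase Lpin1 averaged 11.07 ± 0.44 in double knockout and 10.28 ± 0.64 in wild-type livers (SD, n = 5 each), a difference of 0.80 (SE 0.28, limma adjusted p = 0.21). Its relative Lpin2 had 0.20 (limma adjusted p = 0.211), the acyltransferase Mogat1 -0.24 (limma adjusted p = 0.214) and Dgat1, which makes triglyceride in its last step, -0.14 (limma adjusted p = 0.266). Other droplet-associated proteins had 0 of 23 calls in limma, with 5 of 23 at an unadjusted p under 0.05, 16 of 23 differences below 0 and a median of -0.06. Lowest in p were the retinal reductase Dhrs3 (-0.26, limma adjusted p = 0.0844), Tm6sf2, which acts in lipoprotein loading (-0.20, limma adjusted p = 0.13), the droplet hydrolase Ldah (-0.17, limma adjusted p = 0.159) and the acyltransferase Lpcat2 (-0.11, limma adjusted p = 0.272).

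Among 20 measured genes of PPARalpha and the fasting response, 1 was called. The fatty acid hydroxylase Cyp4a31 rose by 0.27 (SE 0.05, limma adjusted p = 0.045), to 13.30 ± 0.05 in double knockout against 13.03 ± 0.11 in wild-type livers (SD, n = 5 each). Not called were the pantetheinase Vnn1 (0.53, limma adjusted p = 0.0751), Ehhadh of peroxisomal oxidation (0.24, limma adjusted p = 0.117) and the pyruvate dehydrogenase kinase Pdk4 (0.58, limma adjusted p = 0.178). At an unadjusted p under 0.05 in limma there were 7 of 20. In this list 11 differences were above 0 and 9 below, with a median of 0.04. Of 17 measured genes of PPARgamma and steatosis, 2 were called, both higher, and 10 of 17 had an unadjusted p under 0.05 in limma. Here 9 differences were above 0 and 8 below, with a list median of 0.002. The lipoprotein lipase Lpl, on the higher of its 2 rows, averaged 9.21 ± 0.10 in double knockout and 8.08 ± 0.40 in wild-type livers (SD, n = 5 each). Its difference was 1.13 (limma adjusted p = 0.00686). The fatty acid-binding protein Fabp5, on the highest of its 4 rows, averaged 8.51 ± 0.70 in double knockout and 6.68 ± 0.42 in wild-type livers (SD, n = 5 each). Its difference was 1.84 (limma adjusted p = 0.0209). The other rows of Lpl and Fabp5 are not reported here. Pparg itself, the receptor known to drive Cidec in fatty liver, averaged 8.50 ± 0.17 in double knockout and 8.89 ± 0.18 in wild-type livers (SD, n = 5 each), a difference of -0.40 (SE 0.10, limma adjusted p = 0.0846). The citrate lyase Acly had -0.24 (limma adjusted p = 0.0594).

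**Figure D5:**
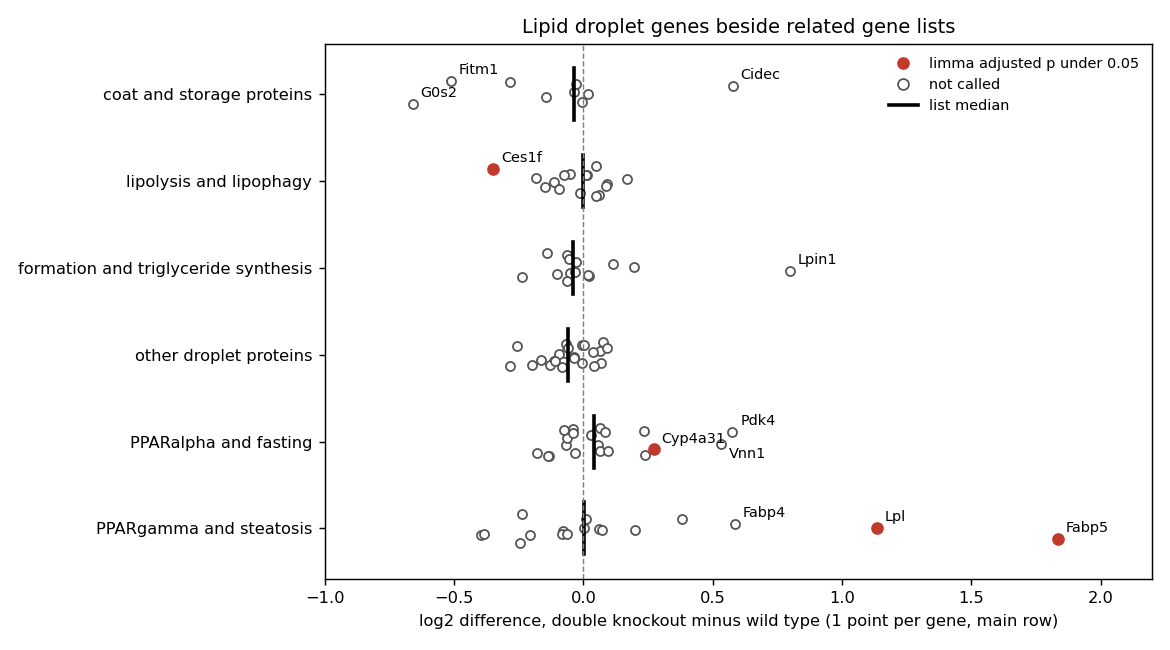
Log2 difference, double knockout minus wild type (horizontal axis), of each gene of the droplet coat and storage list and of 5 related lists (rows), 1 point per gene, red where the limma adjusted p was under 0.05, with the list median as a black bar. The list medians lie between -0.06 and 0.04, and the 4 called genes, Ces1f, Cyp4a31, Lpl and Fabp5, are in other lists than the coat and storage proteins.

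Several droplet genes are also expressed by other cells, and markers of those cells were read in the same arrays. Adipocyte markers gave list means of 7.38 to 7.52 in double knockout and 7.40 to 7.56 in wild-type arrays, with 4 of 11 differences above 0. Of the 11, 6 lay below the background guide, namely Plin1, Adipoq, Lep, Ucp1, Acvr1c and Slc2a4. At an unadjusted p under 0.05 in limma there were 3 of 11. Among these were Slc2a4 (-0.19, limma adjusted p = 0.151) and Fabp4, which lay above the guide (0.59, limma adjusted p = 0.319). The carbonic anhydrase Car3, which liver also expresses, was the 1 called (-0.75 on the higher of its 2 rows, limma adjusted p = 0.00768). With the adipocyte list mean as a covariate Cidec had a difference of 0.62 and G0s2 -0.52. Stellate cell markers, from cells that hold retinyl ester in droplets, gave list means of 9.05 to 9.19 in double knockout and 9.11 to 9.23 in wild-type arrays, with 10 of 13 differences below 0 and 0 called in limma (2 at an unadjusted p under 0.05, Reln and Colec11). Macrophage markers gave list means of 9.24 to 9.57 in double knockout and 9.02 to 9.33 in wild-type arrays (two-sided exact permutation p = 0.0238), with all 15 differences above 0 and Cd163 and Marco called. Of these 15 markers, 8 had an unadjusted p under 0.05 in limma. Beside these marker lists, 0.884% of all rows were called and 15.1% had an unadjusted p under 0.05 in limma. With the macrophage list mean as a covariate Cidec had 0.93 (SE 0.30, limma adjusted p = 0.259) and G0s2 -0.73 (SE 0.38, limma adjusted p = 0.508). The part of these cells in the differences of droplet genes was not tested beyond these fits.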

How the data were processed

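Total liver RNA was labelled with biotin and read on 10 single-colour arrays, 5 double knockout and 5 wild type. The submitters' processing notes name Affymetrix Expression Console as the software with which the authors produced the deposited log2 levels, 1 per probe set. How probes were summarised and arrays normalized, the software version and the genome build: not given in the sources used here. Scanner files, detection calls and batches were not analysed here. Of 41345 rows, 23521 had 1 gene symbol, 1814 several and 16010 none in the platform annotation.

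The 25335 rows with a symbol were fitted with lmFit and eBayes of limma 3.58.1 in R 4.3.3 (two-sided, group as the only term, no filter, no added normalization), with Benjamini-Hochberg adjustment over those rows and calls at an adjusted p under 0.05. Residual degrees of freedom were 8, with 3.96 from the prior. It was tested on simulated data first. Single genes were also tested by exact permutation of the 5 against 5 arrays, and correlations by exact permutation within groups. Genes listed under older symbols were matched through RefSeq gene identifiers. Upstream windows came from a RefSeq table (GRCm38.p6), read with Python 3.11.15. For the droplet genes no window on chromosome 18, where Cidea lies, was kept, and the windows kept covered 9 of the 10 genes, all but Cidea. The share over all 32851 windows was taken without leaving out that chromosome. The members and lists were chosen with earlier results of these data known. Named were all droplet genes, both knocked-out genes, called list members, up to 4 members of lowest p per related list, and for Plin2 and the gene of lowest p the 5 genes of most similar deviations. Abhd5 and the adipocyte markers below the background guide were named beyond that rule. The alternatives are given below.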

Additional observations from a re-analysis of the deposited data

Results flagged for a closer look

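Wild-type replicate 1 had the lowest Plin5 level, 9.75, against 10.04 for the nearest wild-type array, a gap that took up 0.725 of the group's range and passed Dixon's critical value of 0.71 for 5 samples. It was the 1 such array among 24 groups of 5 values checked, and chance alone marks about 1 group in 20. Without that array the Plin5 difference was -0.10 (limma adjusted p = 0.708).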

How the results depend on the processing

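Calls over all rows, 224 as reported, were 377 with the filter on low levels, 75 with every row tested, 613 without replicate 1 of both groups (460 higher and 153 lower), 68 with the 4 arrays richest in pancreas markers left out, 22 and 53 with the macrophage and olfactory receptor means as covariates, and 585 at an adjusted p under 0.1. Leaving out 1 array gave 64 to 253, with 64, 144 and 131 without wild-type replicates 2, 3 and 4 and 135, 124, 68 and 87 without double knockout replicates 2, 3, 4 and 5. Of the droplet genes, 1 was called, always Fitm1, with an intensity trend, the robust option, array quality weights, median centring, the filter, rows with 1 symbol only or an adjusted p under 0.1, and 0 to 1 when 1 array was left out. The lowest limma adjusted p of Fitm1 over 14 alternatives was 0.0263 and the highest 0.389, with 7 under 0.05 and differences from -0.58 to -0.35. Over all rows, deviations of same-numbered arrays correlated at -0.48 to 0.13, and 0 of 5 double knockout arrays correlated best with their own number. The labels give no pairing, and these correlations cannot exclude one for single genes. With the replicate number as a block 76 rows were called, and 1 droplet gene, Fitm1, whose SE was 0.06 against 0.11 as reported. The SE of G0s2 was then 0.14 against 0.26 as reported (limma adjusted p = 0.117 with the block).

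Differences near 0 turned sign. With the 4 arrays richest in pancreas markers left out, Plin2 had -0.023 and Plin5 0.086. With the macrophage mean as a covariate Plin5 had 0.10 and Fitm2 0.0013, and with the olfactory receptor mean Plin5 had 0.081 and Cidea 0.066. With the adipocyte mean as a covariate Cidea had 0.044. Leaving out 1 array, Plin2 ran from -0.020 to 0.049, Plin5 from -0.097 to 0.054 and Cidea from -0.044 to 0.058. Fitm1, G0s2, Plin3 and Plin4 stayed below 0 and Cidec above 0 in all of these fits, and the cause of each shift was not tested. Under the filter on low levels Cidea had no value. Levels near background, as for Cidea and the second rows of G0s2 and Fitm1, limit what could be measured.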
